A study of Mus musculus with 7 samples.

Results

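The mesothelial lining genes examined here are Wt1, Bnc1, Msln, Muc16, Upk1b, Upk3b, Lrrn4 and Gpm6a, 8 genes known for their expression in mesothelium. They were chosen as a group with earlier results of these arrays known, so their values are described and not tested. By the accession of the probe, 7 of the 8 were read by the array, each by 1 probe, among 18027 genes tested. No probe was matched to Muc16, the large cell-surface mucin known as CA125, and it has no value here.

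The title of the study places β-catenin activation in the hair follicle's dermal sheath, the mesenchymal layer around the follicle. Cells of dorsal skin from mice at postnatal day 15 were gated as YFP-positive cells that lacked CD34, ALP (alkaline phosphatase) and ITGα8 (integrin α8). Their RNA was read on 7 one-colour Agilent arrays from 10 mice. All groups thus share the reporter, the gate and the age, while the Cre line and the further alleles of the mice are not given in the sources used here. The 3 arrays labelled control came from 4 mice, with array 3 holding 2 pooled mice. The β-catenin activation group is labelled cΔex3, and its 4 arrays came from 6 mice, with arrays 2 and 3 holding 2 mice each.

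Mesothelium is the flat sheet of cells, of mesodermal origin with epithelial features, that lines the pleural, pericardial and peritoneal cavities and covers the organs and visceral fat within them. It secretes a slippery surface fluid, carries mucin-like proteins and microvilli on its free face, and in the embryo gives rise to mesenchymal cells through the transcription factor Wt1. The dermis has no such lining. Below, a level is the log2 of a probe's processed signal over the 75th percentile of its array, so that 0 stands for that percentile, and a difference is the cΔex3-labelled mean minus the control-labelled mean. The arrays are named control 1 to 3 and cΔex3 1 to 4.

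The signals differed between the groups in much more than these genes. Of the 18027 genes, 53.1% passed limma's adjusted p of 0.05 in either direction, 24.0% with the cΔex3-labelled arrays higher and 29.1% with them lower. Hepatocyte transcripts were at a summed linear level, in multiples of the array's 75th percentile, of 4420 to 5620 on the control-labelled arrays and of 68.4 to 252 on the others, with 10 of 10 listed genes lower. Adipocyte transcripts stood at 14.7 to 91.7 against 814 to 1720, with 10 of 10 higher. Dermal sheath genes such as Acta2, smooth muscle actin, were at 23.4 to 31.9 against 63.4 to 133, with 4 of 8 higher and 0 lower. Beside transcripts of the genes listed for the dermal sheath, the arrays thus carried many typical of liver and fat. The part of these differences in what follows was not tested. The 75th percentile of the signal was 756 to 907 in the control-labelled group, 1348 to 2160 in the cΔex3-labelled group, and 0 spots were saturated.

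All 7 measured members were higher on every cΔex3-labelled array than on every control-labelled array, with differences of 3.85 to 6.92 and a median of 6.30, against a median of -0.08 over all genes tested. All 7 also passed limma's threshold in the higher direction, as 24.0% of all genes did, and 26.1% of all genes had groups without overlap in that direction. Both counts rest on the contrast that chose the members and nothing is read from them. Differences of 2 or more were seen for 7 of the 7 members and 13.7% of all genes, and differences of 4 or more for 6 and 3.94%. The 6 became 3 with normexp and in the deposited series values. In bulk RNA, fewer cells of a type and less RNA per cell cannot be told apart.

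**Figure D1:**
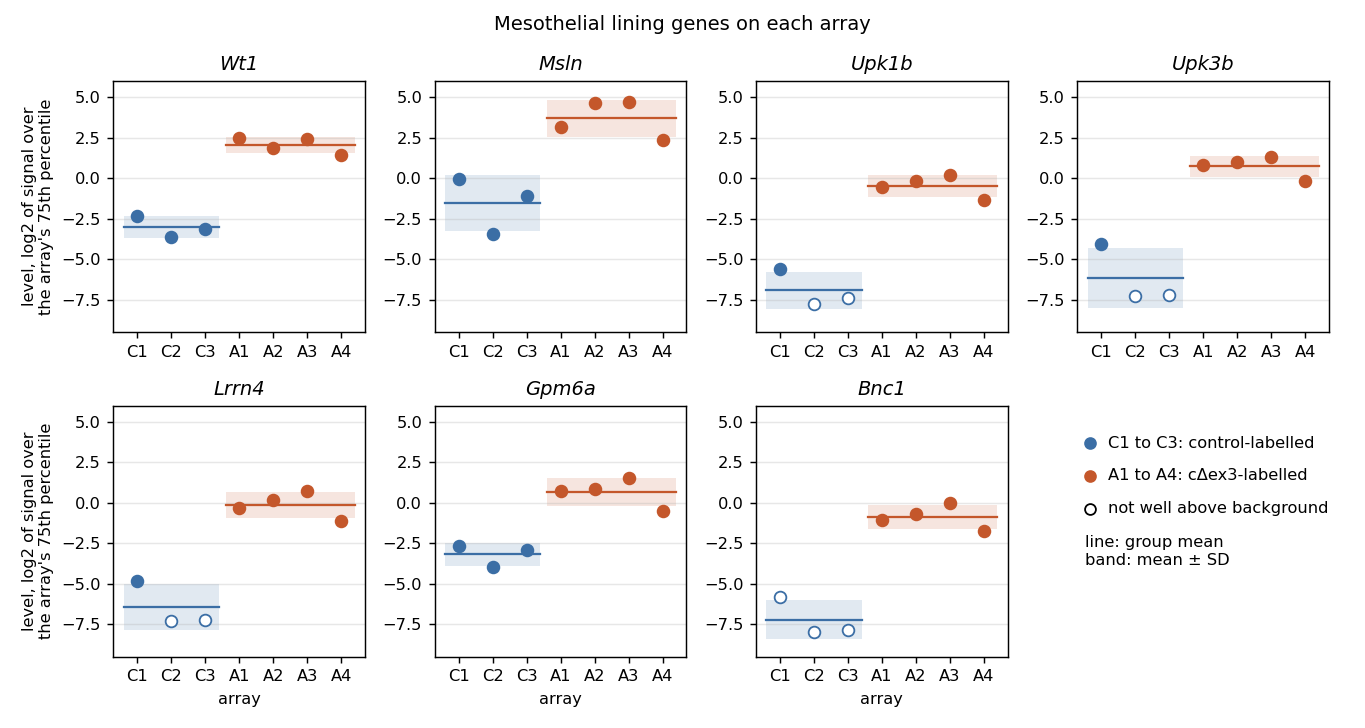
Level of each of the 7 measured members (y axis, log2 of signal over the array's 75th percentile) on the 3 control-labelled arrays (C1 to C3, blue) and the 4 cΔex3-labelled arrays (A1 to A4, orange). Lines are group means, bands are the mean ± SD, and open points were not well above background. In every panel the lowest orange point lies above the highest blue point, C1 is the highest blue point and A4 the lowest orange one.

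Among the transcription factors, Wt1, the zinc-finger factor that marks embryonic mesothelium and the kidney podocyte, was above background on 7 of 7 arrays. Its processed signal was 154.4, 61.63 and 104.7 on control arrays 1 to 3 and 10510, 4985, 8931 and 5883 on cΔex3 arrays 1 to 4. As levels these were -2.31, -3.62 and -3.11 against 2.50, 1.89, 2.43 and 1.45. The means of -3.01 ± 0.66 (SD, n = 3) and 2.07 ± 0.50 (SD, n = 4) lay 5.08 apart, a 33.8-fold difference. Wt1 thus had a low but measurable signal in the control-labelled samples and the narrowest spread of the 7 members on the cΔex3-labelled arrays.

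Bnc1, basonuclin 1, is a zinc-finger protein of basal keratinocytes, germ cells and mesothelium. It was at -5.82, -7.96 and -7.82 on the control-labelled arrays, where 0 of 3 spots were well above background. On the cΔex3-labelled arrays it was at -1.06, -0.71, -0.0026 and -1.76, above background on 4 of 4. It is the one member with only a bound in the control-labelled group. Its level was at least 28.2-fold higher on the cΔex3-labelled arrays, taking for each dim array the higher of the probe's own signal and the lowest signal called above background there.

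Msln encodes mesothelin, the glycolipid-anchored surface protein that binds the product of Muc16. Its levels were -0.04, -3.42 and -1.08 on controls 1 to 3, compared with 3.16, 4.62, 4.69 and 2.36 on cΔex3 1 to 4. The means were -1.52 ± 1.73 (SD, n = 3) and 3.71 ± 1.14 (SD, n = 4), 37.3-fold apart. Msln had the widest range of the 7 members within each group, 3.38 log2 units over the control-labelled and 2.33 over the cΔex3-labelled arrays. Control 1 gave a signal of 742.6, close to that array's 75th percentile, while control 2 gave 70.49.

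The uroplakins Upk1b and Upk3b take their name from the urothelial plaque, but both genes are also expressed in mesothelium. Upk1b, a tetraspanin, was at -5.62, -7.78 and -7.37 against -0.54, -0.20, 0.20 and -1.35. Its probe was printed as 10 repeat spots, which give a direct reading of measurement error. Over the spots without an outlier mark, 9 or 10 per array, the SD was 0.027 to 0.055 on the cΔex3-labelled arrays and 0.29 to 0.45 on the control-labelled arrays. The spots thus repeated more closely at the higher signal. Their spread covers the measurement only and not the spread between samples.

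On control 1, 5 of the 10 Upk1b spots were well above background, on control 2 and control 3 it was 0 of 9 and 0 of 10, and on the cΔex3-labelled arrays every retained spot was. The spots of control 1 ran from -6.11 to -4.91, above all spots of control 2, which ran from -7.98 to -7.06, and of control 3, from -7.80 to -6.65. The higher Upk1b level of control 1 therefore appeared in each of its spots, at a signal near background.

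**Figure D2:**
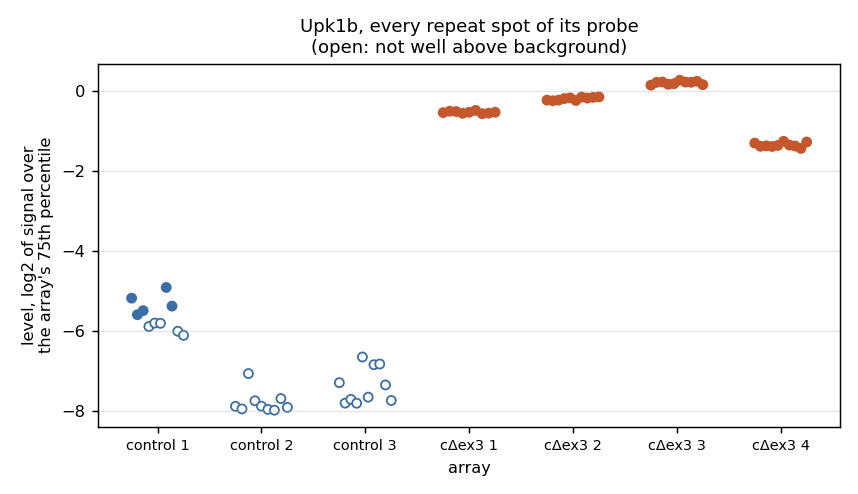
Level of every repeat spot of the Upk1b probe (y axis, log2 of signal over the array's 75th percentile) on each of the 7 arrays, without spots carrying an outlier mark. Filled spots were well above background and open ones were not. The spots of each cΔex3-labelled array lie within a narrow band, from -1.44 at the lowest on cΔex3 4 to 0.26 at the highest on cΔex3 3, and 5 of 10 spots of control 1 are filled.

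Upk3b, a membrane protein with a single transmembrane segment that partners tetraspanin uroplakins, had the largest difference of the members on this scale, whereas Msln had it with normexp background correction (4.85 against 4.01) and in the deposited series values (5.05 against 4.48). It was at -4.04, -7.28 and -7.22 on controls 1 to 3 and at 0.84, 1.00, 1.31 and -0.18 on cΔex3 1 to 4. Control 1 was above background and the other two were not, so that the size of the step between them is not known. The means of -6.18 ± 1.86 (SD, n = 3) and 0.74 ± 0.65 (SD, n = 4) lay 6.92 apart.

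Lrrn4 encodes a neuronal leucine-rich repeat membrane protein that is also used as a mesothelial marker. Its levels were -4.80, -7.29 and -7.22 on the control-labelled arrays, with control 1 alone above background, and -0.35, 0.20, 0.75 and -1.13 on the cΔex3-labelled arrays. The means were -6.44 ± 1.42 (SD, n = 3) and -0.13 ± 0.80 (SD, n = 4), a difference of 6.30. For Upk1b, Upk3b and Lrrn4 the control-labelled mean therefore includes a pair of arrays without measurable signal.

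Gpm6a, a proteolipid-family membrane glycoprotein of neurons and mesothelium, had the smallest difference on this scale, whereas Bnc1 had it with normexp (2.77) and in the deposited series values (3.36). It was at -2.68, -3.96 and -2.91 against 0.74, 0.88, 1.54 and -0.49, above background on 7 of 7 arrays. Its means of -3.18 ± 0.69 (SD, n = 3) and 0.67 ± 0.85 (SD, n = 4) were 14.4-fold apart. Even so, its lowest cΔex3-labelled array was 2.19 above its highest control-labelled array, and for the other 6 members this gap ran from 2.40 to 4.26. Of all genes tested, 797 had a larger difference than Gpm6a and 99 a larger one than Upk3b.

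The order of the arrays within each group recurred from member to member. Control 1 gave the highest control-labelled signal for 7 of 7 members and for 30.9% of all genes. It stood 0.76, 1.06 and 2.21 above the mean of the other pair for Gpm6a, Wt1 and Msln, the members measured on all 3. For Upk1b, Upk3b and Lrrn4 it was the only one of the 3 above background, and for Bnc1 none was, so that its order there is not a measured one. The array cΔex3 4 was the lowest of its group for 7 of 7, by 0.83 for Wt1 to 1.80 for Msln below the mean of the other 3, and for 40.6% of all genes. Both held together for 7 of 7 members and for 11.3% of all genes. Under each of 3 other background corrections or scalings (normexp, quantile and median) both counts stayed at 7 of 7. Without scaling both were 6 of 7, the exceptions being Gpm6a for control 1 and Wt1 for cΔex3 4, and in the authors' deposited series values Gpm6a was the exception for control 1.

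On the cΔex3-labelled arrays, 6 of the 7 members ran in the same order from lowest to highest, arrays 4, 1, 2 and 3, as 10.8% of all genes did. Wt1 was the exception on this scale, with array 1 highest, but under median scaling array 3 was highest for 7 of 7 members. In the order 4, 1, 2 and 3 the arrays of 1 mouse each lie below both arrays of 2 pooled mice. On this scale that held for the same 6 members and for 29.9% of all genes. The order rested on the scaling. Without it, cΔex3 1 gave a higher signal than cΔex3 2 for Upk1b (1280 against 1174) and Upk3b (3319 against 2697). The same held for Gpm6a (3094 against 2484) and Bnc1 (888.3 against 823.2), while Msln and Lrrn4 kept the order. The control-labelled array of 2 mice, array 3, was not the highest for any member on this scale. Whether pooling of mice had a part in the order was not tested.

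After the group mean had been subtracted from each level, the 21 pairs of members had Pearson's r of 0.654 to 0.996 over the 7 arrays, with a median of 0.838. Lrrn4 and Bnc1 were the most alike at 0.996, and Upk3b and Gpm6a the least at 0.654. Without controls 1 and 2, the arrays farthest from the median of the members' mean deviation, the median over the 5 arrays left was 0.782 and the range 0.433 to 0.992. The points share their libraries and the scaling of each array, and for 4 members some control-labelled values were not well above background, so that these r describe the arrays only.

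RefSeq windows from 250 bases before to 50 bases after the annotated start (build GRCm38.p6) were at hand for 5 members, namely Lrrn4, Upk3b, Bnc1, Gpm6a and Muc16. Those of Upk3b, Lrrn4 and Bnc1 are shown because these 3 genes had closely matching deviations, with r of 0.957 to 0.996 for their pairs. They lie at chr5:136038246-136038545 on the plus strand for Upk3b, at chr2:132880813-132881112 on the minus strand for Lrrn4 and at chr7:81992250-81992549 on the minus strand for Bnc1. Each is written 5′ to 3′ on the strand of the gene, with capitals marking matches to the letters searched.
Upk3b: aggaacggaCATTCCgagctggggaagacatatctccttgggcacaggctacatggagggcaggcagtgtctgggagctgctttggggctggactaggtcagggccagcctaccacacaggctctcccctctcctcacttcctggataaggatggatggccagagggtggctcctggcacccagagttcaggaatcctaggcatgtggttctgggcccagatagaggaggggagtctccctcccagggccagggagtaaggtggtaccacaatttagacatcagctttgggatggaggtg
Lrrn4: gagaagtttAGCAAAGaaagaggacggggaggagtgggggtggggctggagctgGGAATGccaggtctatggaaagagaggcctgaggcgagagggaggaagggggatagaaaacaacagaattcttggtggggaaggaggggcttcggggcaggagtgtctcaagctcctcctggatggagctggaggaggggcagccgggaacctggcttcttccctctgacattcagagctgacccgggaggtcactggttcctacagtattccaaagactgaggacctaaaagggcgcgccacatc
Bnc1: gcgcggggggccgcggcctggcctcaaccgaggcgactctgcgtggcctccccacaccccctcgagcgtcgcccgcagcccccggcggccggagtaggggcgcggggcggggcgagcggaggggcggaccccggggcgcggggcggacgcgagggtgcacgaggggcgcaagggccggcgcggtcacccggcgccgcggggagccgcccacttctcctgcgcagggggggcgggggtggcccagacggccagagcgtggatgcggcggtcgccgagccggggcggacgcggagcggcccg
The capitals in Upk3b are a reverse match to GGAATG, the core letters of TEAD factors, which carry YAP to DNA. In Lrrn4 the capitals are, from the left, a reverse match to CTTTGNT, the letters of TCF/LEF factors, which carry β-catenin to DNA, and a forward match to GGAATG. Bnc1 holds neither.

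Over the 6 member windows, of which Gpm6a has 2, GGAATG on either strand was found in 3 and in 14.7% of all 32851 windows. The letters CTTTGNT were found in 1 of 6 and in 18.6% of all windows. The letters GCGTGGGNG, a binding motif of WT1 itself, were found in 0 of 6 and in 1.9% of all. The searched motifs do not overlap one another in these windows. The 3 windows differ in base composition. G and C made up 58.7% of the Upk3b window, 58.0% of that of Lrrn4 and 83.3% of that of Bnc1, with a median of 52.7% over all windows.

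A further 25 genes associated with mesothelium, which are no members and were grouped by role, were read from the same limma fit. Of these, 24 could be tested. In the cΔex3-labelled group 16 were higher, 5 were lower and 3 did not pass. The share called higher over all genes was 24.0% and the share called lower 29.1%. The median difference of the 24 was 3.43. This list, too, was drawn up with results of these arrays known, and it is not independent evidence of a direction.

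**Figure D3:**
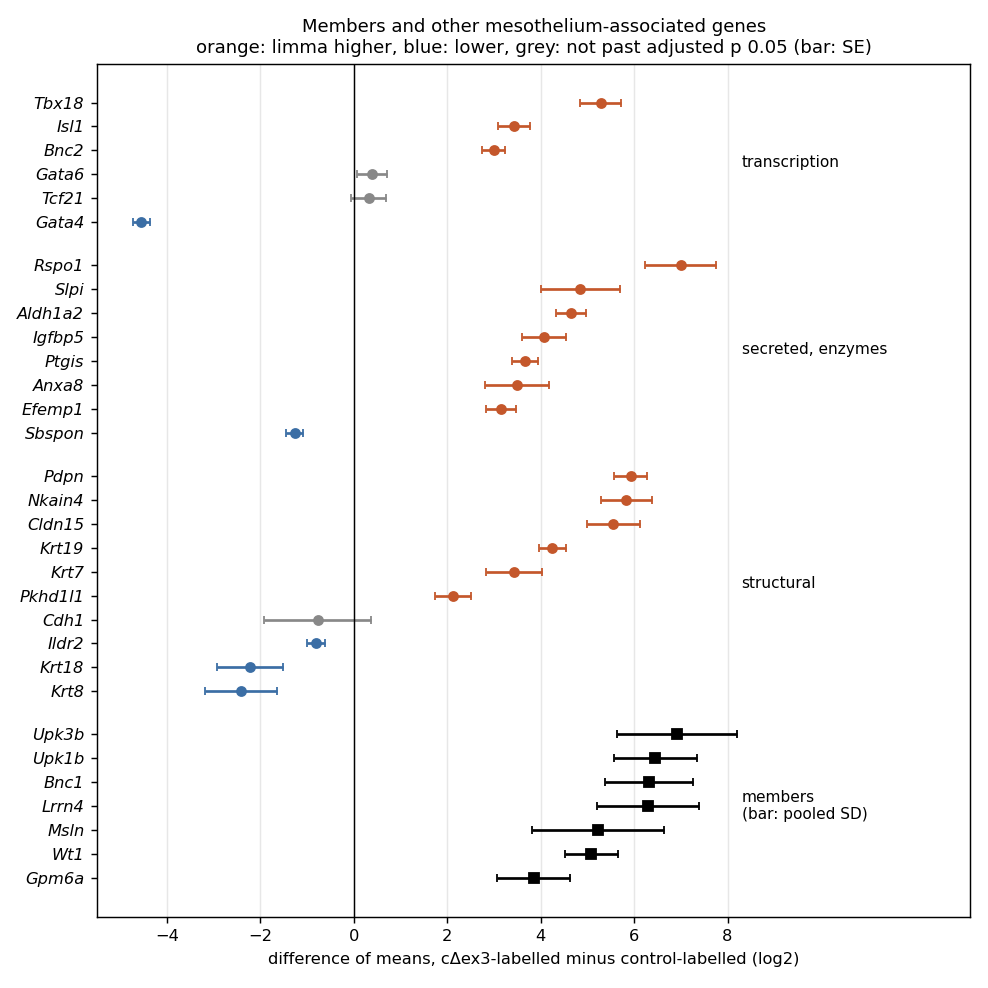
Difference of group means (x axis, cΔex3-labelled minus control-labelled, log2) for the 7 measured members (black squares, bars are the pooled SD) and 24 other mesothelium-associated genes by role (points, bars are the SE of the limma fit). Orange points were higher and blue points lower at an adjusted p under 0.05, and grey points did not pass. Among the other genes 16 points are orange, 5 blue and 3 grey, and the members run from 3.85 to 6.92.

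Of 10 structural and surface genes, 6 were higher, 3 lower and 1 did not pass, with a median of 2.78. Pdpn, podoplanin, a surface mucoprotein of mesothelium and lymphatic vessels, rose by 5.93 ± 0.35 (SE, limma adjusted p = 3.34e-05), and its other probe by 4.05. Nkain4, which encodes a protein that interacts with the sodium pump, rose by 5.83 ± 0.54 (adjusted p = 0.000197). The tight-junction gene Cldn15 rose by 5.56 ± 0.58 (adjusted p = 0.000318).

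The keratins split. Krt19 rose by 4.25 ± 0.28 (adjusted p = 5.08e-05) and Krt7 by 3.43 ± 0.60 (adjusted p = 0.00309). The Krt7 call was lost over arrays of 1 mouse (adjusted p = 0.0615). Krt8 and Krt18, the partner keratins of simple epithelia and also of hepatocytes, fell by 2.41 ± 0.77 and 2.23 ± 0.71 (adjusted p = 0.0335 and 0.0334). Both calls were lost on leaving out any single array among controls 1, 2 and 3 and cΔex3 1 and 2, with adjusted p of 0.0523 to 0.102 for Krt8 and 0.0563 to 0.0912 for Krt18. They were also lost with slide row as a block (adjusted p = 0.0624 and 0.0563), with quantile normalization (0.0641 and 0.16), without scaling (0.199 and 0.234), in the deposited series values (0.0602 and 0.159) and over arrays of 1 mouse (0.13 and 0.212).

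Pkhd1l1, a large membrane protein gene, was above background on 0 of 3 control-labelled and 4 of 4 cΔex3-labelled arrays and was at least 1.65-fold higher (adjusted p of the fitted difference 0.00392). That fitted difference changed sign with normexp background correction, to -0.34 (adjusted p = 0.198), and its call was lost over arrays of 1 mouse (adjusted p = 0.0749). Ildr2 fell by 0.82 ± 0.19 (adjusted p = 0.0103) and was 0.29 without scaling between arrays. Its call was lost over arrays of 1 mouse (adjusted p = 0.0546). Cdh1, E-cadherin, differed by -0.77 ± 1.15 and did not pass. Calb2, the calretinin gene, a defining marker of mesothelium in pathology, was well above background on 0 of 7 arrays and was not tested.

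Of 8 secreted proteins and enzymes, 7 were higher and 1 lower, with a median of 3.87. Rspo1, an R-spondin that amplifies Wnt signalling, was at -1.58, -4.48 and -3.01 on controls 1 to 3 and at 4.22, 4.88, 4.11 and 2.68 on cΔex3 1 to 4. It rose by 6.995 ± 0.763 (adjusted p = 0.000401), and it repeats the members' order in having control 1 highest and cΔex3 4 lowest.

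Slpi, a secreted leukocyte protease inhibitor, rose by 4.84 ± 0.85 (adjusted p = 0.00303), with 2.83 on control 1 against -0.67 on control 2. Aldh1a2, which makes retinoic acid, rose by 4.64 ± 0.32 (adjusted p = 6.11e-05). Its highest cΔex3-labelled array was array 4, the lowest for the members. Igfbp5, Ptgis, Anxa8 and Efemp1 rose by 4.07, 3.66, 3.49 and 3.14 (adjusted p = 0.000507, 9.32e-05, 0.0049 and 0.000302), the other probe of Anxa8 by 1.73. Over arrays of 1 mouse the calls of Slpi and Anxa8 were lost (adjusted p = 0.0639 and 0.0601). Sbspon fell by 1.27 ± 0.18 (adjusted p = 0.00111), at a signal above background on 2 of 3 and 2 of 4 arrays, and did not pass without scaling (adjusted p = 0.618) or in the deposited series values (adjusted p = 0.0753).

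The transcription factors of mesothelium and its derivatives did not move together. Of 6, 3 were higher, 1 was lower and 2 did not pass, with a median of 1.69. Tbx18, a T-box factor of epicardial and other coelomic mesothelium, was above background on 4 of 4 cΔex3-labelled and 0 of 3 control-labelled arrays and at least 10.5-fold higher (adjusted p of the fitted difference 0.000128). Isl1, with the same detection, was at least 7.89-fold higher (adjusted p 0.000266).

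Bnc2, the paralogue of Bnc1, rose by 2.99 ± 0.25 (adjusted p = 0.000122), from -4.40, -4.71 and -4.47 to -1.10, -1.65, -1.37 and -2.01. Unlike Bnc1 it was above background on 7 of 7 arrays, and like the members it had control 1 highest and cΔex3 4 lowest in their groups. Gata4 fell by 4.55 ± 0.18 (adjusted p = 9.29e-06). Gata6 differed by 0.39 ± 0.32 (adjusted p = 0.335) and Tcf21 by 0.32 ± 0.38 (adjusted p = 0.502), although Gata6 passed without cΔex3 4 (difference 0.65, adjusted p = 0.0288).

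Genes of other cell types that use a member were read as well, since Upk1b and Upk3b are also urothelial, Wt1 also of podocytes and Sertoli cells, Gpm6a also neuronal and Bnc1 also keratinocyte. Together with 7 other mucins, read in the absence of a Muc16 probe, these were 38 genes. Of the 35 tested, 9 were higher, 8 lower and 18 did not pass, with a median difference of 0.40. The shares were 25.7% and 22.9%, near those of all genes, 24.0% and 29.1%.

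Of 7 urothelial genes 1 was higher and 1 lower, with a median of -0.17 and summed levels of 4.65 to 6.29 on the control-labelled and 0.962 to 18.3 on the cΔex3-labelled arrays. Upk1a, the other tetraspanin uroplakin, was at 2.07, 2.34 and 2.51 against -1.30, -0.75, -0.60 and 3.71 and did not pass (difference -2.04 ± 1.17, adjusted p = 0.181). Without cΔex3 4 it was lower by the fit, at -3.19 (adjusted p = 0.000145). Within the groups Upk1a was highest on cΔex3 4, where Upk1b was lowest, and lowest on control 1, where Upk1b was highest.

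Among the partner uroplakins, named after their values had been seen, Upk2 differed by -0.23 ± 0.82 (adjusted p = 0.831). Upk3a, above background on 0 of 3 and 3 of 4 arrays, was at least 1.62-fold higher (adjusted p of the fitted difference 0.0311). That fitted difference was -0.31 with normexp, and the call was lost without control 2, control 3, cΔex3 1 or cΔex3 3 (adjusted p of 0.0588 to 0.102). The Upk3a call was also lost with slide row as a block (0.0682), in the deposited series values (0.171) and over arrays of 1 mouse (0.0641).

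The other lists were mixed. Of 7 podocyte and Sertoli genes tested, 2 were higher and 2 lower (median 0.10). Summed over the 8 with a probe, the levels were 6.22 to 19.0 against 3.55 to 7.21. The probes of Synpo, a podocyte actin-binding protein, disagreed, at 2.94 ± 0.53 (adjusted p = 0.00333) and -1.62, and their mean did not pass (difference 0.66, adjusted p = 0.0707). Sox9, a Sertoli cell factor, differed by 0.40 ± 0.70 (adjusted p = 0.653). Of 8 neural genes, 4 were higher and 2 lower (median 0.87, summed levels 76.7 to 90.0 against 89.2 to 141). Gpm6b, the closest paralogue of Gpm6a, named after its value had been seen, rose by 3.21 ± 0.33 (adjusted p = 0.000319). The synaptic gene Snap25 rose by 2.39 ± 0.52 (adjusted p = 0.0076), and Elavl4, a neuronal RNA-binding protein gene, fell by 3.31 ± 0.56 (adjusted p = 0.00254).

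Of 6 keratinocyte genes tested, 1 was higher and 1 lower (median 0.50). Summed over the 8 with a probe, the levels were 2.68 to 3.56 against 5.01 to 7.88. Trp63, the p63 gene of basal keratinocytes, rose by 1.95 ± 0.20 (adjusted p = 0.0003), with its other probe at 4.33. Lor, the cornified-layer protein loricrin, fell by 2.75 ± 0.46 (adjusted p = 0.00252), a call lost over arrays of 1 mouse (adjusted p = 0.0664). Krt10 differed by -0.38 ± 0.20 (adjusted p = 0.152), with its other probe at 1.24. Without cΔex3 4, Krt10 passed as lower (difference -0.51, adjusted p = 0.0315). In the absence of a probe for Muc16, 7 other mucins were read, of which 1 was higher and 2 lower (median 0.30, summed levels 1.5 to 1.53 against 0.968 to 95.0). Muc5ac fell by 3.02 ± 0.16 (adjusted p = 2.24e-05). Muc5b rose by 5.45 ± 1.73 (adjusted p = 0.0336) with 6.51 on cΔex3 4 and -1.40 on cΔex3 1. The call was lost on leaving out any single control-labelled array or cΔex3 3 (adjusted p of 0.065 to 0.0888). The Muc5b call was also lost with slide row as a block (0.0946), in the deposited series values (0.0506) and over arrays of 1 mouse (0.175).

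Each list's mean deviation from its group mean was set beside that of the members, which was 1.31, -0.98 and -0.33 on controls 1 to 3 and -0.06, 0.28, 0.75 and -0.97 on cΔex3 1 to 4. The secreted and enzyme genes of mesothelium were also highest on control 1 and lowest on cΔex3 4 within each group, at 0.63, -0.72 and 0.09 on the control-labelled and at -0.06, 0.36, 0.27 and -0.57 on the cΔex3-labelled arrays. The structural genes were at 0.16 on control 1 and at -0.43 and 0.43 on cΔex3 3 and 4, and so highest on cΔex3 4. The transcription factors were at -0.08 on control 1, their lowest control-labelled value, and at -0.30 on cΔex3 4. Adipocyte genes shared the low value on cΔex3 4, at -0.98, but not the high one on control 1, where they stood at -0.31. Endothelial and macrophage genes were likewise at -0.95 and -0.93 on cΔex3 4 and at -0.13 and -0.17 on control 1.

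On cΔex3 4, where the members were lowest, keratinocyte, urothelial and epididymal genes were at 1.79, 1.48 and 2.24. Of 6 epididymal genes tested 3 were higher and 1 lower. Summed over the 10 with a probe, tested or not, the levels were 3.33 to 4.58 against 1.76 to 575. Hepatocyte genes were at 0.09, 0.20 and -0.29 on controls 1 to 3 and at -1.06, 0.65, -0.15 and 0.56 on cΔex3 1 to 4. The part of any of these in the members' order was not tested.

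**Figure D4:**
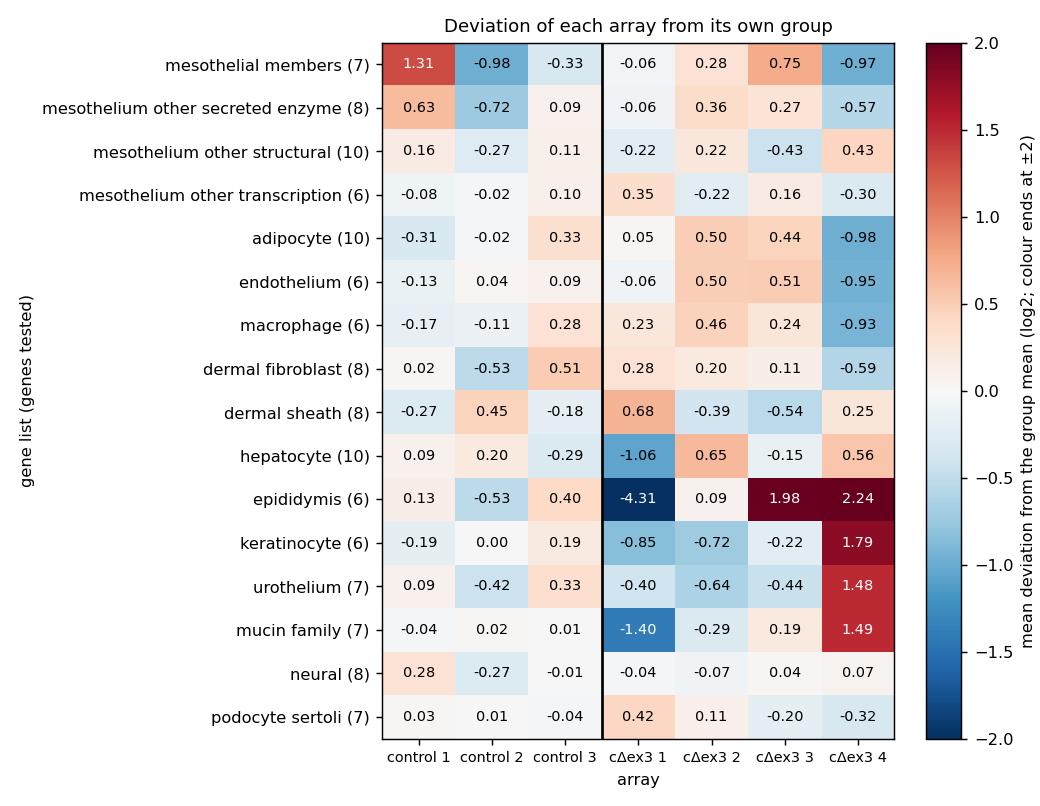
Mean deviation of each array from its own group mean (colour and number, log2) for the members (top) and 15 other gene lists, with the number of genes tested in brackets. The 3 columns left of the line are control-labelled and the 4 right of it cΔex3-labelled. The members are highest on control 1, at 1.31, and lowest on control 2 and cΔex3 4, at -0.98 and -0.97.

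Over all tested genes whose deviations had an SD of at least 0.5, 6458 in number, those most like the members' mean deviation were sought. The median r over these was 0.0161, and 21 had an r of 0.95 or more. Nkain4 came first with r = 0.993 (Spearman's rho 0.964, and r = 0.994 without controls 1 and 2). It was at -2.50, -4.33 and -4.02 on the control-labelled and at 2.15, 2.57, 2.86 and 1.30 on the cΔex3-labelled arrays, which is the members' order on both sides.

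Crb2, an apical polarity gene, came next with r = 0.990 (rho 1.0, and 0.978 without the same arrays). It rose by 4.99 ± 0.57 (adjusted p = 0.000484), from above background on 1 of 3 control-labelled arrays to 4 of 4 cΔex3-labelled arrays. The other 3 genes followed the members within the groups and not between them. Lrrc15 (r = 0.980) differed by 0.45 ± 0.45 (adjusted p = 0.421), with a sign that turned to -0.71 under normexp. Its levels of -7.25 to -5.51 lay near background, and it was above background on 1 of 3 control-labelled and 3 of 4 cΔex3-labelled arrays. Lsmem1 (r = 0.973) differed by 0.44 ± 0.82 (adjusted p = 0.67).

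Lrtm2 (r = 0.970) fell by 3.23 ± 0.95 (adjusted p = 0.025), a call lost without control 1 or cΔex3 1 (adjusted p = 0.0697 and 0.0573). It was also lost with slide row as a block (0.067) or the replicate number as a block (0.074). The same held without scaling (0.0594), in the deposited series values (0.0597) and over arrays of 1 mouse (0.0713). Of the mesothelium-associated genes, Pdpn, Igfbp5 and Rspo1 had r of 0.945, 0.912 and 0.904, while Krt19 and Krt8 had -0.462 and -0.532. The lowest were Gata4, Cdh1 and Tcf21 at -0.852, -0.789 and -0.683. A high r was not particular to the mesothelium-associated genes. It ran from -0.624 to 0.949 over the neural list and from -0.655 to 0.882 over the dermal fibroblast list. Genes were chosen for likeness here, so these r are a description over 7 arrays that share library and scaling.

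**Figure D5:**
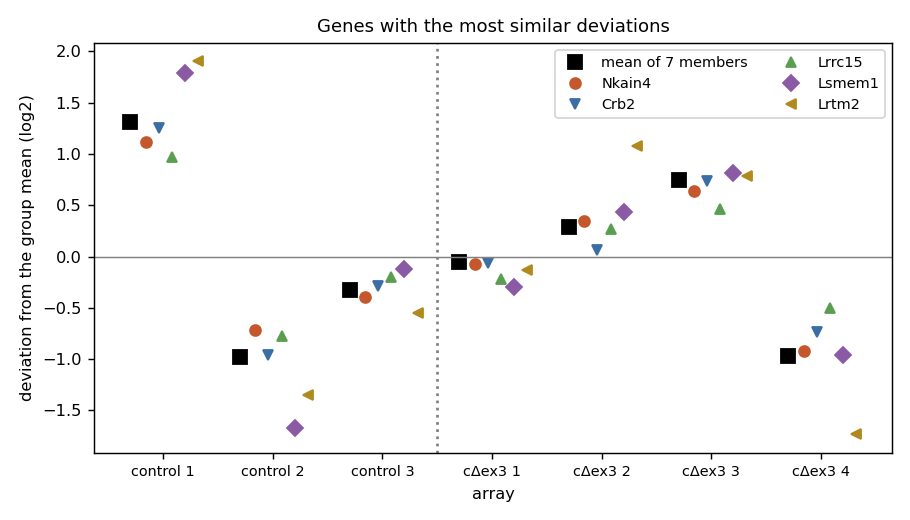
Deviation from the group mean (y axis, log2) on each of the 7 arrays for the mean of the 7 members (black squares) and the 5 other genes with the most similar deviations (coloured symbols, offset sideways for legibility). The members' mean is at 1.31 on control 1 and at -0.97 on cΔex3 4, and each of the 5 genes is above 0 on control 1 and below 0 on cΔex3 4.

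The file headers place controls 1 and 2 and cΔex3 1 in one row of the slide, and the other arrays in the other; these positions were taken as the headers give them and were not checked against another record. Within row 1 the members' differences ran from 4.06 to 6.49 with a median of 5.70 (2 control-labelled arrays and 1 cΔex3-labelled array), and within row 2 from 3.55 to 7.93 with a median of 6.91 (1 and 3). The median over the arrays of 1 mouse alone was 5.31. With normexp background correction, which compresses dim signals, it was 3.26, and in the deposited series values 3.77. The direction was the same for 7 of 7 members in each of these, and nothing is read from it, as this contrast chose them. None of these settings bears on whether the difference came from the labelled allele or from the make-up of the sorted samples. The allele and the make-up cannot be told apart here.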

How the data were processed

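RNA of sorted cells was read on 1 Agilent 1-colour array per sample. Per the file headers, the authors scanned the arrays with Feature Extraction 10.7.1.1. Levels come from the intensity the authors deposited as processed signal, which is linear, background-subtracted per the file headers and unscaled between arrays. Raw median and background intensities served the normexp alternative, and the authors' spot flags, other values of 0 or 1, marked outliers, saturation and detection. The authors' deposited series table holds log2 values, with its background correction and normalisation not given in the sources used here. Its column medians were 7.407 to 7.413, it correlated at 0.99546 or more with normexp values, and it served as an alternative only.

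Control spots and spots marked as outliers were left out, and spots of a probe were averaged. Levels were log2 of the signal minus each array's 75th percentile. Of 55681 probes, 28026 were named by accession through RefSeq tables, and 23757 of those named were well above background on at least 3 of the 7 arrays. Each gene was represented by its brightest probe on average, which left 18027 genes. Groups were compared in limma 3.58.1 in R 4.3.3 (two-sided, no covariate, Benjamini-Hochberg over all genes tested, threshold 0.05). The limma fit, but not the steps before it, was tested on simulated gene values. The labels call the arrays biological replicates.

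The members and lists were chosen with earlier results of these data known. Genes open to naming were the members, every tested gene of the 3 mesothelium lists, up to 3 tested genes of each other list with the highest mean level, and the 5 genes most like the members' mean deviation. Upk2, Upk3a and Gpm6b were added once their values were known. Not every gene open to naming has its own value in the text, and 2 are not reported here. Alternatives changed the background correction, scaling, filter, probe rule, blocks and arrays included. The number of arrays limits the precision.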

Additional observations from a re-analysis of the deposited data

Results flagged for a closer look

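Of 72 genes examined on the 4 cΔex3-labelled arrays, 5 had 1 array far from the other 3, by a ratio of the gap to the range above Dixon's critical value, and in each it was cΔex3 4. Chance alone marks about 1 in 20. No member was among them. Efemp1 was at 4.02 there against 5.06 to 5.21 on the others (ratio 0.872), Lum at 2.24 against 3.87 to 3.94 (0.963) and Csf1r at 4.83 against 5.77 to 5.90 (0.876). Upk1a was at 3.71 against -1.30 to -0.60 (0.861) and Muc20 at 1.33 against -2.17 to -1.80 (0.894). The cause was not tested.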

How the results depend on the processing

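Over 18 alternatives, the 7 members' differences kept their sign in 126 of 126 comparisons, and 14 of these moved by more than the pooled SD. As the members were chosen with this contrast known, nothing is read from the kept signs. Each member has 1 probe, so the filter and probe-rule alternatives left its value unchanged. The members' median of 6.30 became 3.26 with normexp on the median spot signal (an alternative chosen after seeing the data, as the mean signal was not used here), 7.41 without scaling, 3.77 in the deposited series values and 5.31 over arrays of 1 mouse. Leaving out 1 array at a time gave 5.88 to 7.005. Over all genes, 4333 higher and 5237 lower became 10083 and 1606 without scaling, where the median of all genes was 1.02 in place of -0.08 and 86.3% of calls were higher, against 45.3%, and 3243 to 4922 and 3996 to 5569 with 1 array left out.

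Of the other mesothelium-associated genes, the 16 higher ranged from 12 to 18. The 5 lower became 3 with quantile normalisation, 1 without scaling, 2 in the deposited series values, 3 with slide row as a block and 2 over arrays of 1 mouse, and were 3 to 5 with 1 array left out (3 without control 1, 2 or 3 or cΔex3 1 or 2). Without scaling, the lists of other cell types and mucins, 9 higher and 8 lower, became 17 and 5. Over arrays of 1 mouse 5 were higher, and with 1 array left out 6 to 10 were higher and 7 to 10 lower. Of the other named genes, 12 had another sign under some alternative. For Cdh1, Lsmem1, Krt10 and Upk2, among others, neither the main fit nor the fits with the other sign passed. For 5 a sign turned with a call on one side, namely Pkhd1l1 (-0.34), Lrrc15 (-0.71) and Upk3a (-0.31) with normexp, and Ildr2 (0.29) and Csf1r (0.87) without scaling. The causes were not tested. Replicate numbers are shared between the groups, and the labels do not say whether they pair the mice. Deviations of same-numbered arrays correlated at -0.00881, -0.000892 and 0.0182, which cannot settle how the mice were paired. With the replicate number as a block, 4493 genes were higher and 4981 lower, the members' median was 6.61 and the other mesothelium-associated genes were 16 higher and 5 lower. Only cΔex3 4 has the number 4, so this block takes that array out of the contrast. The members' median without cΔex3 4 was likewise 6.61. Signals near background limit 4 members on the control-labelled arrays.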
